A study of Mus musculus with 24 samples.

Results

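The miR-34 family was followed through small RNA sequencing of mouse subcutaneous fat. Its members were miR-34a-5p (MIMAT0000542), miR-34b-5p (MIMAT0000382) and miR-34c-5p (MIMAT0000381), the 5p miRNAs of the Mir34a, Mir34b and Mir34c hairpins, found by identifier among 2045 mature miRNA loci, and all 3 were among the 654 loci abundant enough to test. Female mice were trained kinase dead, sedentary kinase dead, trained wild type or sedentary wild type, with 6 libraries in each of these 4 groups and 24 in all. Trained mice ran on a treadmill at 16 m/min for 1 hour on 5 days a week over 6.5 weeks and could also use a running wheel at will. All mice ate chow. The labels name neither the kinase that is inactive, nor the cells in which it is inactive, the strain or the age. They also do not say that each library came from its own animal, so the p-values below measure the spread between these libraries.

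miR-34 miRNAs are short regulatory RNAs that lower the output of mRNAs carrying a match to their seed, the bases near the 5′ end. The tumour suppressor p53 activates both of their genes, and their known targets act in cell cycle progression, survival and, through Sirt1, metabolism. miR-34a has its own primary transcript and is made in many tissues, whereas miR-34b and miR-34c are cut from 1 shared transcript and are best known from ciliated epithelia and testis. In fat, miR-34a is known to rise in obese mice and to oppose browning. The miR-449 miRNAs, encoded at another locus, carry the same seed and share many targets with the family.

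The sequences of miR-34a-5p and miR-34b-5p, beside miR-449 miRNAs, show the seed (bases 2 to 8, in capitals) and where they differ outside it. The sequences are RefSeq mature sequences on GRCm38.p6.
miR-34a-5p: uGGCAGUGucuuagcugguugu
miR-34b-5p: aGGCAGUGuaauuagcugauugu
miR-449a-5p: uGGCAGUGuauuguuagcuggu
miR-449c-5p: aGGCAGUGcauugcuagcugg
The seed GGCAGUG stood in 4 of the 1738 mature mouse entries of that table, the 4 shown here. miR-34c-5p and miR-449b-5p, known to carry the same seed, were not among the entries counted and are named only. Starting from base 2, miR-34a-5p and miR-34b-5p were identical up to base 9, and their first bases differed. The opposite arms carried other seeds, and those of the 34b/c cluster shared theirs.
miR-34b-3p: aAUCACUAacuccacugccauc
miR-34c-3p: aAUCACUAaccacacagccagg
These 3p sequences were identical from base 2 to base 10.

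On GRCm38, the build the files use, miR-34a-5p lay at chr4:150068473-150068494 on the plus strand. Its hairpin (150068454 to 150068555) was intergenic, 18809 bases from the nearest protein-coding gene, Gpr157, a receptor gene. miR-34b-5p lay at chr9:51103610-51103632 and miR-34c-5p at chr9:51103076-51103098, both on the minus strand, with 451 bases between their hairpins. Both hairpins were within an intron of Btg4 on the opposite strand, a gene known from oocyte maturation. No other locus of the counts table overlapped a member, so no read of a member was shared by position with another miRNA.

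Library totals ran from 1.6 to 23.6 M reads, and 3 reads stood for 0.118 to 1.8 counts per M reads (CPM). The fewest reads of a member in a library were 76, for miR-34b-5p, so no member was near that limit. Fat-rich miRNAs were abundant everywhere, with the 6 listed ones summing to between 154600 and 291500 CPM. In 7 libraries the 4 lymphocyte miRNAs listed (miR-150-5p, both arms of miR-142a, miR-155-5p) summed to between 12320 and 21730 CPM, against 1389 to 3106 CPM in the other 17. The 7 were trained kinase dead replicates 3 and 6, sedentary kinase dead replicates 5 and 6, trained wild type replicates 1 and 2 and sedentary wild type replicate 1. They are called lymphocyte-rich below, a split made on miR-150-5p alone. Values of the members are given for all 24 libraries and, where they are compared, also without these 7. In bulk tissue, fewer cells of a type and less RNA per cell cannot be told apart.

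miR-34c-5p was the most abundant member and miR-34b-5p by far the scarcest. Over all libraries 74104 reads came from miR-34c-5p (59.1% of the family), 44923 from miR-34a-5p (35.8%) and 6327 from miR-34b-5p (5.05%). The mature loci are 22 or 23 bases long, so CPM can be set side by side without a correction for length. Mean levels were 356.6 ± 78.2 CPM for miR-34c-5p, 230.7 ± 59.3 CPM for miR-34a-5p and 32.6 ± 10.8 CPM for miR-34b-5p (SD, n = 24), which ranked 146, 170 and 302 among the 654 tested loci. miR-34b-5p was the lowest member in 24 of 24 libraries, and miR-34c-5p exceeded miR-34a-5p in 20. The order of the family was therefore fixed at its lower end and not at its upper end.

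Of the miRNAs with the same seed at the miR-449 locus, miR-449a-5p was the only one tested, at a mean of 3.38 CPM. miR-449c-5p had 53 reads over all libraries and miR-449b-5p had 2. miR-34 hairpins therefore supplied nearly all reads with this seed in the tissue.

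miR-34a-5p had a lowest, median and highest level of 143.4, 220.5 and 324.5 CPM in trained kinase dead and 177.0, 220.6 and 321.0 CPM in sedentary kinase dead. In trained wild type they were 147.0, 192.8 and 249.1 CPM, against 205.8, 247.5 and 323.4 CPM in sedentary wild type. All groups overlapped, and trained wild type had both the lowest median and the lowest maximum.

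miR-34b-5p lay at 22.2, 34.2 and 53.7 CPM (lowest, median, highest) in trained kinase dead and at 24.9, 30.4 and 44.8 CPM in sedentary kinase dead. In trained wild type it lay at 21.7, 25.1 and 28.7 CPM, against 24.9, 33.7 and 61.8 CPM in sedentary wild type. The trained wild type libraries were tightly grouped, with an SD of 2.59 CPM, against 15.2 CPM in sedentary wild type. The 2 highest of all 24 libraries, sedentary wild type replicate 4 and trained kinase dead replicate 2, were also the 2 shallowest, with 1.6 and 2.29 M reads and 103 and 116 reads of miR-34b-5p.

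miR-34c-5p lay at 268.9, 336.2 and 481.9 CPM in trained kinase dead and at 221.0, 391.5 and 565.4 CPM in sedentary kinase dead. In trained wild type it lay at 288.0, 324.6 and 354.4 CPM, against 231.9, 389.1 and 453.7 CPM in sedentary wild type. The lowest library of the sedentary groups of both genotypes was a lymphocyte-rich one, and so were the 2 lowest of both trained groups. Summed over the members, the family had 610.6 ± 105 CPM in trained kinase dead, 661.1 ± 81.2 CPM in sedentary kinase dead, 541.5 ± 24.97 CPM in trained wild type and 666.5 ± 78.4 CPM in sedentary wild type (SD, n = 6 each).

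**Figure D1:**
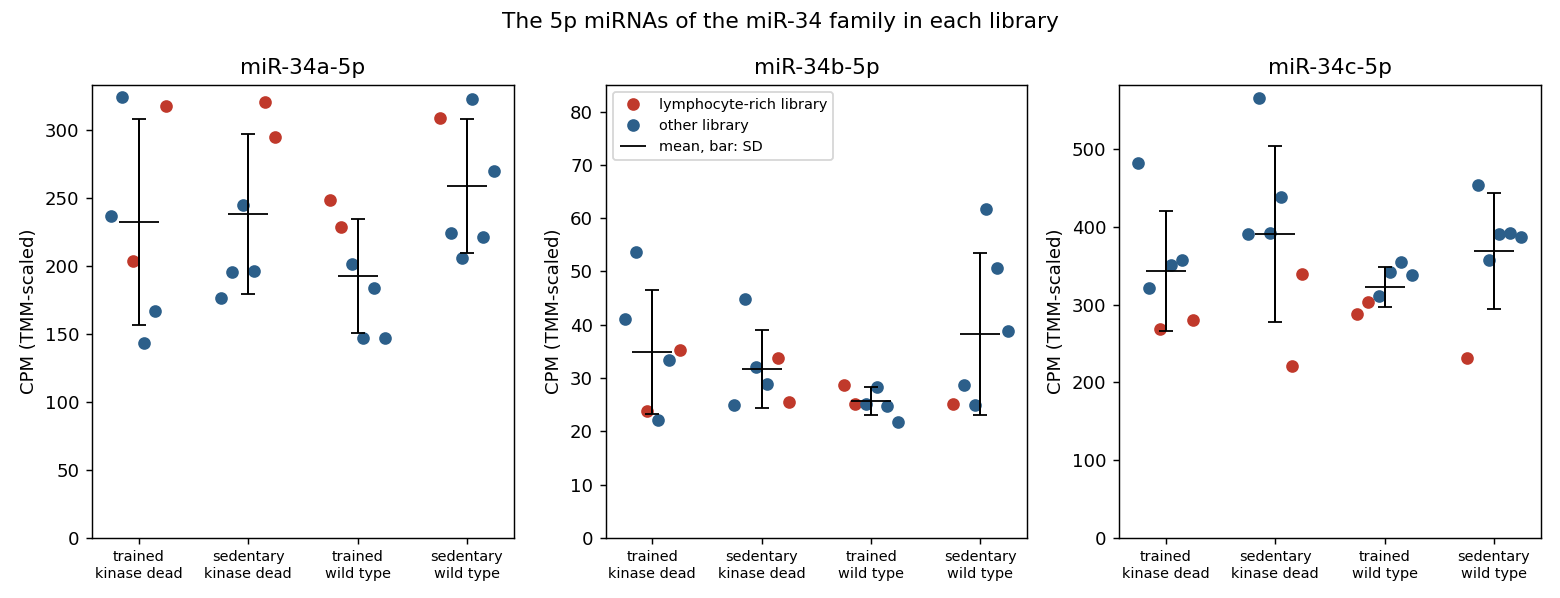
Levels of miR-34a-5p, miR-34b-5p and miR-34c-5p in CPM (y axis, from 0) in the 4 groups of 6 libraries. Points are libraries, red where lymphocyte-rich, and black lines give the mean and SD. Red points lie at 203.9 CPM or more for miR-34a-5p, within the range of the blue ones (143.4 to 324.5 CPM). For miR-34c-5p they sit low (339.0 CPM or less), and trained wild type is the tightest group for miR-34b-5p.

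The first question of the design is how training alters the family in wild type fat. None of the 3 members passed the threshold of an adjusted p below 0.05. All 3 estimates were lower in trained libraries, with a median log2 fold change of -0.43, while 336 of the 654 loci (51.4%) were lower and the median of all loci was -0.01. The test was edgeR's quasi-likelihood F test, with p-values adjusted over the 654 loci by the Benjamini-Hochberg method. It called no locus (0%) and gave 38 an unadjusted p below 0.05 (5.81%). DESeq2 called 0 and gave 41 (6.27%).

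miR-34b-5p averaged 25.6 ± 2.59 CPM in trained wild type, against 38.3 ± 15.2 CPM in sedentary wild type (SD, n = 6 each). Its log2 fold change was -0.57 (SE 0.23, 95% interval -1.05 to -0.09), with an unadjusted edgeR p of 0.0215 and an adjusted p of 0.831. All 6 trained libraries were below the sedentary median, but only 2 of the 6 were below the lowest sedentary library. It was the 1 member of 3 with an unadjusted p below 0.05 in this fit. Leaving out sedentary wild type replicate 4, the shallowest library, gave a log2 fold change of -0.39 (edgeR p 0.0907), which is the estimate closest to 0 over the 24 libraries left out in turn.

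miR-34a-5p averaged 193.0 ± 41.9 CPM in trained wild type, against 259.2 ± 49.4 CPM in sedentary wild type (SD, n = 6 each). The log2 fold change was -0.43 (SE 0.21, interval -0.86 to 0.01; edgeR p 0.0527, adjusted p 0.831). The unadjusted p was below 0.05 in 4 of the 6 alternatives tried, among them DESeq2 (p 0.0415, adjusted p 0.787). Of the trained libraries, 5 were below the sedentary median. The 1 above it, trained wild type replicate 1, was lymphocyte-rich.

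miR-34c-5p averaged 322.8 ± 25.6 CPM in trained wild type, against 369.0 ± 74.1 CPM in sedentary wild type (SD, n = 6 each). Its log2 fold change was -0.19 (SE 0.19, interval -0.58 to 0.19; edgeR adjusted p 0.964). All 6 trained libraries were below the sedentary median. The single sedentary library below them all, replicate 1, was lymphocyte-rich.

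Without the 7 lymphocyte-rich libraries, 4 trained and 5 sedentary wild type libraries remained, and the 3 estimates were -0.53 for miR-34a-5p, -0.68 for miR-34b-5p and -0.22 for miR-34c-5p. Their edgeR adjusted p-values were 0.326, 0.326 and 0.668. Over the 6 alternatives tried, other than leaving out single libraries, the adjusted p of miR-34a-5p ran from 0.326 to 0.944 and that of miR-34b-5p from 0.326 to 0.913. In these 9 libraries miR-34a-5p lay between 147.0 and 201.6 CPM in trained, against 205.8 CPM or more in sedentary, and miR-34c-5p between 311.2 and 354.4 CPM in trained, against 357.6 CPM or more in sedentary. Both groups were thus apart for 2 of 3 members, by small gaps, and overlapped for miR-34b-5p. Depth differed between them too. The trained libraries had between 9.08 and 13.2 M reads, and the sedentary ones 1.6, 3.46, 3.47, 6.1 and 20.9 M. The part of depth in these gaps was not tested. Among all 654 loci, 13 were lower without overlap in the same libraries (1.99%) and 12 were higher (1.83%).

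Markers of other tissues differed between wild type libraries too. The 6 striated muscle miRNAs summed to between 1090 and 6078 CPM in trained wild type and between 685.4 and 7483 CPM in sedentary wild type, and miR-208b-3p, of cardiac and slow muscle, was at 0 in 17 of the 24 libraries. The 10 epithelial miRNAs summed to between 16930 and 28240 CPM in trained and between 16130 and 26970 CPM in sedentary wild type. The 4 red cell miRNAs summed to between 1389 and 4723 CPM in trained and between 2223 and 9761 CPM in sedentary wild type. The groups overlapped for each list, and its part in the miR-34 values was not tested.

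In kinase dead fat the members had training estimates of mixed sign, none of which passed the test. No locus was called by edgeR (0%) or by DESeq2, and 17 of 654 had an unadjusted p below 0.05 by either tool (2.60%), no member among them. miR-34a-5p averaged 232.4 ± 75.9 CPM in trained kinase dead and 238.3 ± 59.0 CPM in sedentary kinase dead (SD, n = 6 each), and the log2 difference was -0.04 (SE 0.21, interval -0.47 to 0.39). miR-34b-5p averaged 34.9 ± 11.6 CPM in trained and 31.6 ± 7.33 CPM in sedentary kinase dead, with a log2 difference of 0.13 (SE 0.23, interval -0.35 to 0.61). miR-34c-5p averaged 343.4 ± 76.9 CPM in trained and 391.2 ± 113 CPM in sedentary kinase dead, with a log2 difference of -0.19 (SE 0.18, interval -0.57 to 0.19). All 3 had an edgeR adjusted p of 0.997. The median of the members was -0.04, beside -0.02 for all loci. Leaving out trained kinase dead replicate 2, one of the shallow libraries, took miR-34a-5p to -0.21 and miR-34b-5p to -0.08. Leaving out sedentary kinase dead replicate 5, a lymphocyte-rich library with the lowest miR-34c-5p, took miR-34c-5p to -0.37 (unadjusted edgeR p 0.0406, adjusted p 0.791). In that fit 39 loci had an unadjusted p below 0.05. This p of miR-34c-5p was the lowest with 1 library left out. The highest was 0.602, and with all 24 libraries it was 0.321. Without all 7 lymphocyte-rich libraries the estimates were 0.08 for miR-34a-5p, 0.16 for miR-34b-5p and -0.25 for miR-34c-5p.

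Averaged over genotypes, the 3 members again had negative estimates, at -0.23 for miR-34a-5p (SE 0.15), -0.22 for miR-34b-5p (SE 0.16) and -0.19 for miR-34c-5p (SE 0.13). Their edgeR adjusted p-values were 0.982, 0.995 and 0.995. Of all loci, 344 were lower (52.6%) and none was called (0%), with 37 below an unadjusted p of 0.05 by edgeR (5.66%) and 41 by DESeq2 (6.27%). Without the 7 lymphocyte-rich libraries the estimates were -0.23 for miR-34a-5p, -0.26 for miR-34b-5p and -0.23 for miR-34c-5p. With all 24 libraries the unadjusted edgeR p was 0.129 for miR-34a-5p, 0.191 for miR-34b-5p and 0.159 for miR-34c-5p. With 1 library left out it ran from 0.0347 to 0.243, 0.0415 to 0.410 and 0.0219 to 0.408 in that order. The lowest p of miR-34c-5p came without sedentary kinase dead replicate 5 (log2 fold change -0.29, adjusted p 0.523). Those of miR-34a-5p (-0.33, adjusted p 0.400) and miR-34b-5p (-0.33, adjusted p 0.460) came without trained kinase dead replicate 2. In these 2 fits 49 and 67 loci had an unadjusted edgeR p below 0.05.

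Whether training acted differently in the genotypes was asked by the interaction, the training difference in kinase dead minus that in wild type. It was largest for miR-34b-5p, with a log2 difference of 0.70 (SE 0.33, interval 0.03 to 1.38), an unadjusted edgeR p of 0.0426 and an adjusted p of 1.00. miR-34a-5p had 0.39 (SE 0.29, interval -0.22 to 1.00) and miR-34c-5p 0.01 (SE 0.26, interval -0.54 to 0.55), both with an adjusted p of 1.00. No locus was called (0%), and 13 had an unadjusted p below 0.05 (1.99%). DESeq2 called 0 and gave 14 (2.14%). The miR-34b-5p estimate ranged from 0.49 to 0.80 over the 24 fits with 1 library left out, the lowest without trained kinase dead replicate 2. Leaving out that library took miR-34a-5p to 0.23. Over those 24 fits the unadjusted edgeR p of miR-34b-5p ran from 0.0207 to 0.119. It was below 0.05 in 3 of the 5 other alternatives, but 0.0513 with library totals alone and 0.0596 with no filter. Without the 7 lymphocyte-rich libraries the interaction was 0.61 for miR-34a-5p (unadjusted edgeR p 0.0645), 0.83 for miR-34b-5p (p 0.0452) and -0.03 for miR-34c-5p (p 0.904), with adjusted p-values of 0.905, 0.905 and 0.997.

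Genotype was compared within each training status. In trained mice, kinase dead set against wild type, the log2 fold changes were 0.27 for miR-34a-5p (SE 0.21), 0.43 for miR-34b-5p (SE 0.23, edgeR p 0.0724) and 0.09 for miR-34c-5p (SE 0.18), each with an adjusted p of 0.999. The groups overlapped for every member. In sedentary mice they were -0.12 for miR-34a-5p (SE 0.21), -0.27 for miR-34b-5p (SE 0.23) and 0.08 for miR-34c-5p (SE 0.18), each with an adjusted p of 0.996. No locus was called in either (0%). edgeR gave an unadjusted p below 0.05 for 6 loci in trained mice (0.917%) and for 5 in sedentary mice (0.765%), and DESeq2 for 11 in trained (1.68%) and 6 in sedentary mice (0.917%). No member was among the edgeR loci. Without the 7 lymphocyte-rich libraries the trained estimates were 0.34 for miR-34a-5p, 0.56 for miR-34b-5p and 0.17 for miR-34c-5p (edgeR adjusted p 0.997 each). The sedentary ones were -0.27, -0.28 and 0.20 in the same order (adjusted p 0.984 each). Leaving out trained kinase dead replicate 2 took the trained estimates to 0.14 for miR-34a-5p and 0.27 for miR-34b-5p. Leaving out trained kinase dead replicate 4 took miR-34b-5p to 0.53 (unadjusted edgeR p 0.0317, adjusted p 0.993). That p is the lowest with 1 library left out, and the highest was 0.225. The 2 training comparisons and the 2 genotype comparisons reuse the same libraries, so their estimates for a member are not independent.

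**Figure D2:**
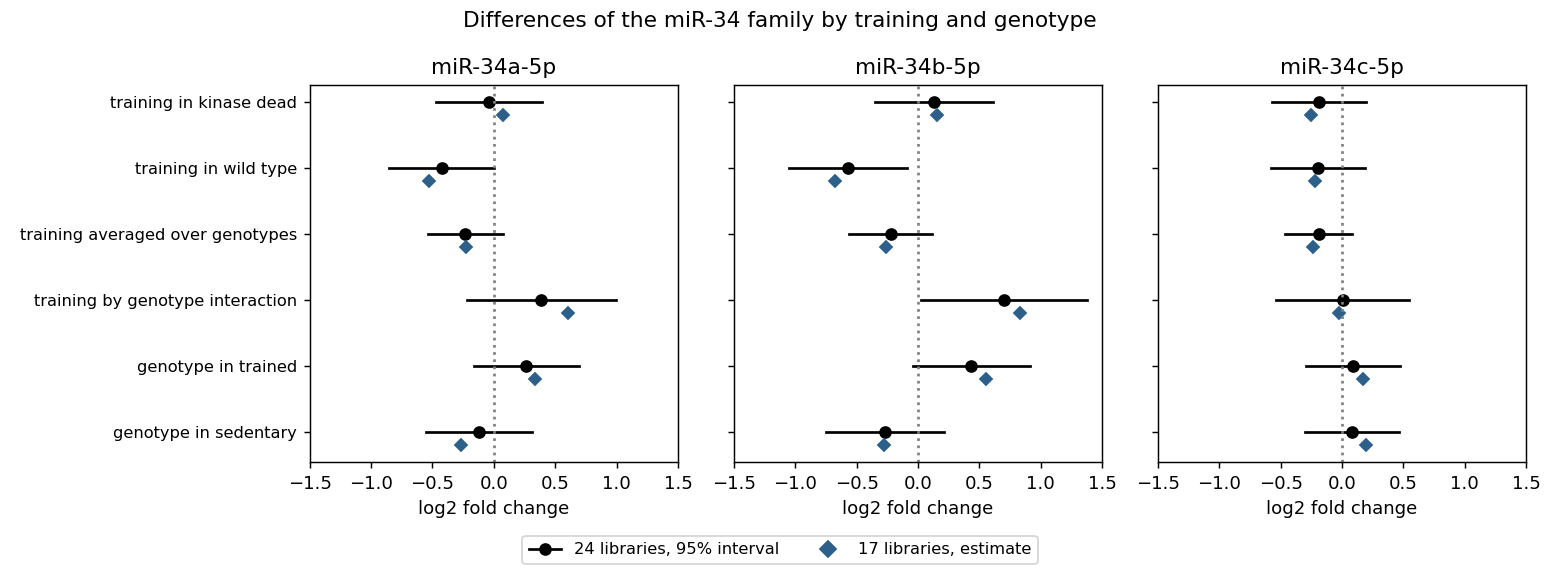
Log2 fold changes (x axis) of the members in the 6 comparisons. Black points with lines are edgeR estimates with 95% intervals from 24 libraries, and blue diamonds are estimates from the 17 libraries that were not lymphocyte-rich. Only the miR-34b-5p intervals for training in wild type (-1.05 to -0.09) and for the interaction (0.03 to 1.38) leave out 0, and neither passed after adjustment.

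miR-34a-5p was set against the 34b/c cluster as its CPM divided by the summed CPM of miR-34b-5p and miR-34c-5p. The mean ratio was 0.640 ± 0.260 in trained kinase dead, 0.635 ± 0.350 in sedentary kinase dead, 0.562 ± 0.159 in trained wild type and 0.676 ± 0.274 in sedentary wild type (SD, n = 6 each). The group means differed by less than the spread within any group. No test was run on this ratio, since it combines the members.

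The ratio varied far more with the lymphocyte-rich libraries than with the design. It lay between 0.696 and 1.26 in those 7, with a median of 0.809, and between 0.321 and 0.867 in the other 17, with a median of 0.466. All 7 were above the median of the others, and the 3 libraries with more miR-34a-5p than 34b/c cluster miRNA (trained kinase dead replicate 6, sedentary kinase dead replicate 5, sedentary wild type replicate 1) were among them. Of the 17, only trained kinase dead replicate 2 and sedentary wild type replicate 4 reached the lowest lymphocyte-rich value, at 0.867 and 0.714. These are the shallowest libraries, and the 15 left without them ended at 0.635. Without the lymphocyte-rich libraries the group means were 0.533 in trained kinase dead, 0.436 in sedentary kinase dead, 0.473 in trained wild type and 0.571 in sedentary wild type.

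Both sides of the ratio took part. miR-34a-5p had a median of 294.8 CPM in the 7 lymphocyte-rich libraries and 201.6 CPM in the other 17, and all 7 were above 201.6 CPM. The 17 reached 324.5 CPM, above the 321.0 CPM of the highest of the 7. miR-34c-5p had a median of 279.7 CPM in the 7 and 387.0 CPM in the 17, and 6 of the 7 were below every other library. miR-34b-5p had medians of 25.5 and 28.8 CPM and overlapped throughout. The split was defined by another miRNA, and these values are given as a description. The epithelial miRNAs moved with it, summing to between 15520 and 18120 CPM in the 7 and between 16700 and 28240 CPM in the 17. The fat-rich list summed to between 154600 and 205800 CPM in the 7 and between 201600 and 291500 CPM in the 17. The striated muscle list summed to between 474.0 and 1167 CPM in the 7 and between 714.6 and 8352 CPM in the 17, and the red cell list to between 1389 and 9761 CPM in the 7 and between 1344 and 5307 CPM in the 17. The part of lymphocytes, epithelium, fat cells, muscle or red cells in the ratio was not tested.

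**Figure D3:**
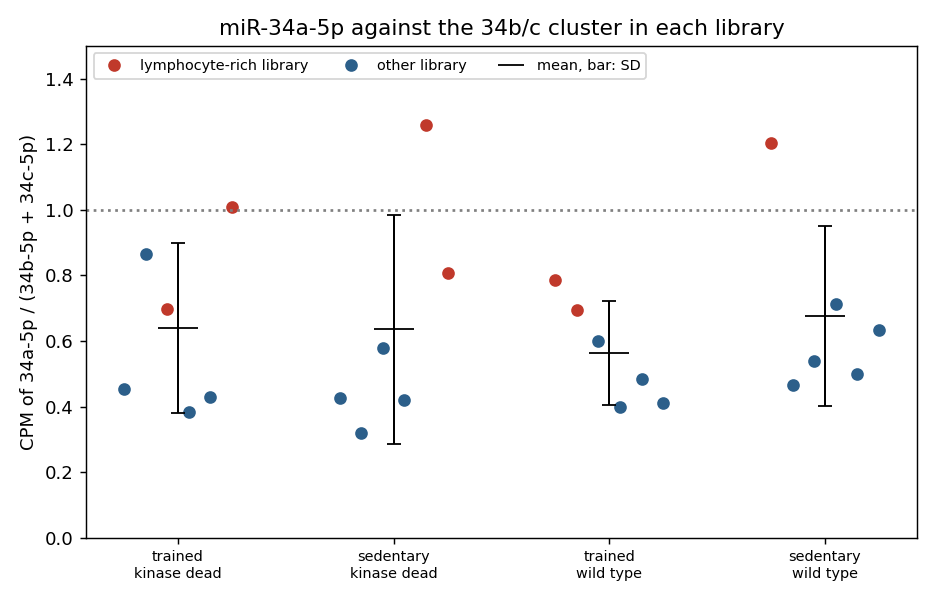
CPM of miR-34a-5p divided by that of miR-34b-5p plus miR-34c-5p (y axis, from 0) in the 4 groups of 6 libraries, with mean and SD in black. Red lymphocyte-rich libraries lie between 0.696 and 1.26 and most blue ones at 0.635 or below, in every group. The dotted line marks equal amounts.

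Within the 17 other libraries, miR-34a-5p and miR-34b-5p, from different chromosomes, varied together. Pearson's r of their log2 CPM levels was 0.772 and Spearman's rho 0.703 (permutation p 0.00037 and 0.00225, adjusted p 0.00666 and 0.0405 over 18 relations). Without the 2 libraries farthest from the median of miR-34a-5p, which are the 2 shallowest, r was 0.591 (permutation p 0.0217, not adjusted, n = 15). The 17 libraries span the 4 groups and were permuted without regard to group. The part of group and of depth in r was not tested. Within the 7 lymphocyte-rich libraries r was 0.640 and rho 0.714 (exact permutation p 0.134 and 0.0881, adjusted p 0.626 and 0.493).

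The cluster partners miR-34b-5p and miR-34c-5p, cut from 1 transcript, had r = 0.327 and rho = 0.444 over the same 17 libraries (permutation p 0.200 and 0.0747, adjusted p 0.864 and 0.503). Without the same 2 shallow libraries r was 0.622 (permutation p 0.0125, not adjusted, n = 15), above the 0.591 of miR-34a-5p with miR-34b-5p in the same 15. The order of these relations thus turned with those 2 libraries, and their difference was not tested. In the 7 lymphocyte-rich libraries r was -0.317 and rho 0.000 (exact permutation p 0.482 and 1.00). The ratio of miR-34c-5p to miR-34b-5p ranged from 5.97 to 15.8 over the 24 libraries. Its group means were 10.6 ± 3.40 in trained kinase dead, 12.6 ± 3.27 in sedentary kinase dead, 12.7 ± 1.94 in trained wild type and 10.6 ± 3.74 in sedentary wild type (SD, n = 6 each).

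miR-34a-5p and miR-34c-5p had r = 0.153 and rho = 0.301 within the 17 libraries (permutation p 0.556 and 0.237, adjusted p 0.864 and 0.693) and r = -0.332 within the 7 (exact permutation p 0.453). Without the 2 shallowest of the 17, r was 0.424 (permutation p 0.115, not adjusted, n = 15). The relations of each member with the lymphocyte, epithelial, striated muscle and red cell sums had an adjusted permutation p of 0.864 for Pearson's r within the 17, and r between -0.347 (miR-34a-5p with striated muscle) and 0.399 (miR-34c-5p with the lymphocyte list). Without the 2 libraries farthest from the member's median, these 2 had r = -0.211 and 0.595 (permutation p 0.445 and 0.019, not adjusted). miR-34a-5p with the lymphocyte list then had 0.492 (p 0.0615).

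**Figure D4:**
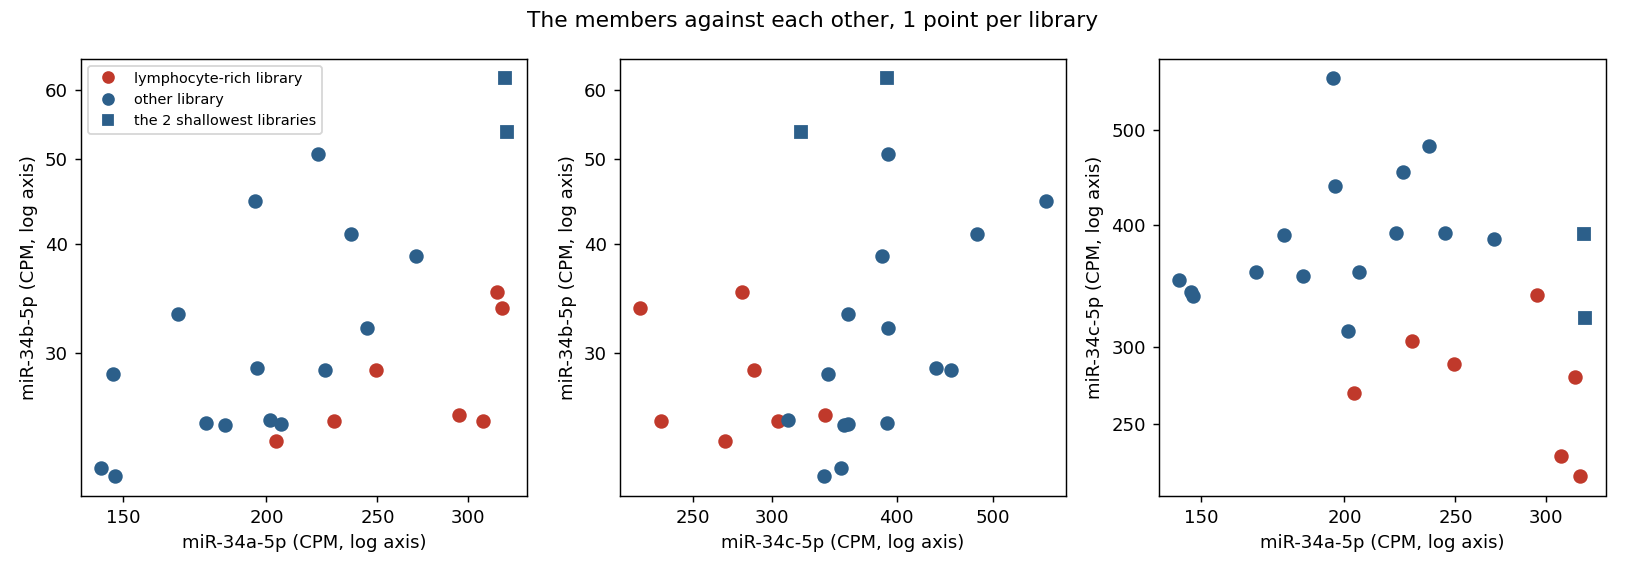
Each panel sets 1 member against another in CPM on log axes, 1 point per library, with lymphocyte-rich libraries in red and the 2 shallowest as squares. In the left panel blue points climb together (r = 0.772, n = 17), with the squares at the top. In the right panel red points lie at 203.9 CPM of miR-34a-5p or more and at 339.0 CPM of miR-34c-5p or less.

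The use of its 2 arms set Mir34b apart from the other hairpins. The 5p arm held 99.54% of the reads of Mir34a, with 208 reads from its 3p arm, and 98.46% of Mir34c. It held 80.49% of Mir34b, with 6327 reads against 1534 from the 3p arm (95% Wilson interval 79.60% to 81.35%, counting error only). Mir34b was thus the hairpin with the most even use of its arms, and miR-34b-3p, at a mean of 7.15 CPM, was more abundant than miR-34c-3p at 5.25 CPM although its 5p partner was far scarcer.

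For Mir34b, the 3p arm followed the lymphocyte-rich split more closely than the 5p arm did. miR-34b-3p lay between 2.53 and 5.76 CPM in the 7 libraries and between 6.78 and 10.5 CPM in the other 17, with no overlap. Of all 654 loci, 8 were lower without overlap in the 7 (1.22%) and 83 were higher (12.7%). miR-34c-3p lay between 2.30 and 4.51 CPM in the 7 and between 2.31 and 9.49 CPM in the 17, and all 7 were below the median of the 17. Only 1 of the 7 was below every one of the 17, against 6 for miR-34c-5p. miR-34b-5p, from the same hairpin as miR-34b-3p, overlapped between the 2 sets, so the ratio of its 5p to its 3p arm lay between 4.43 and 9.91 in the 7 and between 2.38 and 8.58 in the 17. Within the 17 libraries the arms of Mir34b were not seen to vary together (r = 0.020, rho = 0.054, permutation p 0.938 and 0.839, adjusted p 0.938 and 0.929), nor were those of Mir34c (r = 0.031, rho = -0.152, permutation p 0.905 and 0.558).

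Neither 3p arm passed the test in any comparison. For training in wild type the log2 fold changes were 0.04 for miR-34b-3p (SE 0.29) and 0.07 for miR-34c-3p (SE 0.34), both with an edgeR adjusted p of 0.997. For training in kinase dead they were -0.17 (SE 0.29) and -0.31 (SE 0.34), with an adjusted p of 0.997. miR-449a-5p had -0.37 in wild type (SE 0.32, adjusted p 0.957) and -0.41 in kinase dead (SE 0.32, adjusted p 0.997), from 6 to 73 reads per library.

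**Figure D5:**
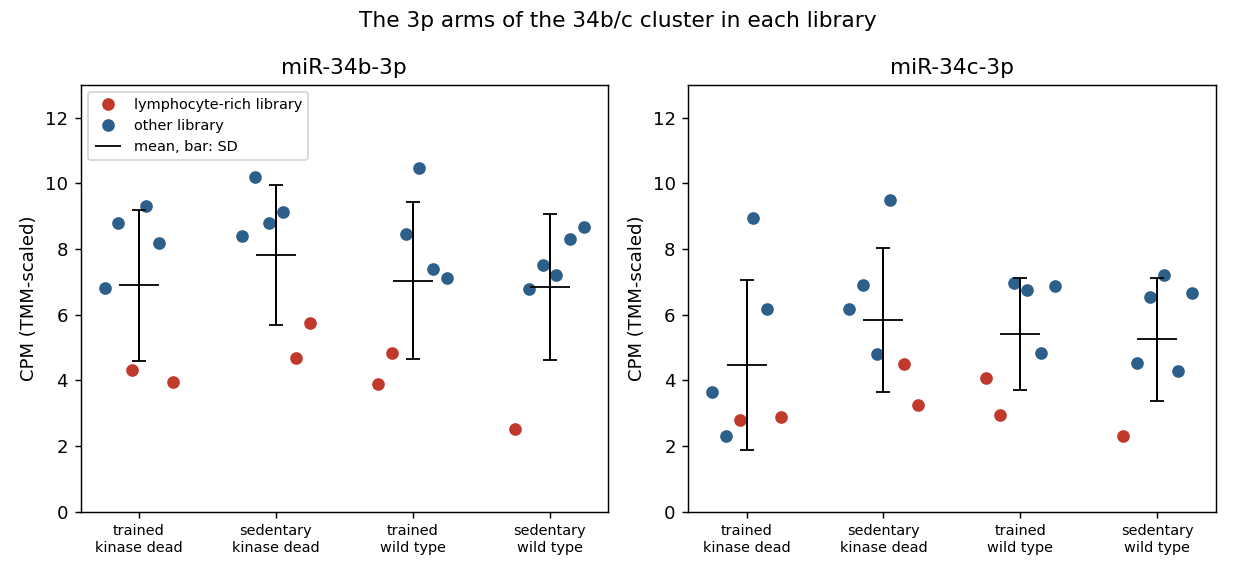
Levels of miR-34b-3p and miR-34c-3p in CPM (y axis, from 0) in the 4 groups of 6 libraries, with mean and SD in black. The red lymphocyte-rich libraries have the lowest miR-34b-3p in every group, at 5.76 CPM or less, and the blue ones 6.78 CPM or more.

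Other miRNAs known as induced by p53 in mammals (miR-192, miR-194, miR-215, miR-605, miR-143, miR-145, miR-107, miR-15a, miR-16, miR-200c and miR-141) had 25 loci, of which 20 were tested. None of the 20 was called in any of the 6 comparisons. For training in wild type, 9 had higher and 11 lower estimates, with a median log2 fold change of -0.01, as for all loci. In that comparison 4 of the 20 had an unadjusted edgeR p below 0.05, against 38 of all 654 loci (5.81%), and 3 of them were higher in trained mice. These were the 2 loci of miR-194-5p, at 0.32 (p 0.0457) and 0.41 (p 0.0189), and miR-192-5p, made in the same cluster as one of them and known from gut and liver, at 0.26 (p 0.0382). The fourth was miR-15a-3p, at -0.44 (p 0.0411). All 4 had an edgeR adjusted p of 0.831. The loci of miR-194-5p share a mature sequence, as do those of miR-16-5p, so the 20 loci are not independent. The most abundant of the list, miR-143-3p, was at -0.18 on the log2 scale (SE 0.16, edgeR adjusted p 0.957).

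In trained against sedentary kinase dead 8 of the 20 loci were higher and 12 lower, with a median of -0.02. The interaction had 9 higher and 11 lower. Kinase dead set against wild type gave 9 higher and 11 lower in trained mice, and 12 higher and 8 lower in sedentary mice. No locus of the list had an unadjusted edgeR p below 0.05 outside training in wild type.

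Likeness to each member was measured as Spearman's rho of log2 CPM over the 24 libraries, among 381 loci of at least 10 CPM outside the miR-34 hairpins. miR-34a-5p was most like miR-500-3p (0.838), miR-18a-5p (0.764) and miR-30b-5p (0.757), and over the 17 libraries these had 0.740, 0.662 and 0.748. miR-34b-5p was most like miR-193b-3p, known from brown fat (0.675), miR-98-5p of the let-7 family (0.658) and miR-221-3p (0.650), with 0.647, 0.738 and 0.711 over the 17. miR-34c-5p was most like miR-379-5p of the imprinted Dlk1-Dio3 region (0.806), miR-152-3p (0.758) and the epithelial miR-183-5p (0.758), with 0.701, 0.49 and 0.50 over the 17. No miRNA was named for more than 1 member. The points share library depth and the lymphocyte-rich split, and the values of miR-34c-5p with miR-152-3p and miR-183-5p were lower within the 17 libraries.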

How the data were processed

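Small RNA of mouse subcutaneous fat was sequenced in 24 libraries. RNA was isolated with TRIzol and a NEBNext small RNA kit served for the libraries, per the labels' protocols. The tools CASAVA (1.8.2), Trim Galore, Bowtie2 and featureCounts, and the build mm10, are named without roles in the submitters' processing notes. How strand and multiple mapping were handled is not stated there. The authors deposited raw read counts per mature miRNA locus, with no normalization. Loci were named by coordinates from RefSeq (1670) or by their GENCODE hairpin and arm (375) on GRCm38.

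Counts were tested with edgeR 4.0.16 (R 4.3.3) in 1 quasi-likelihood fit of the 4 groups, with TMM factors and the filterByExpr function (minimum count 10), which kept 654 of 2045 loci. The other 1391 held 0.0166% of the reads. P-values were adjusted by Benjamini-Hochberg over the 654, with a threshold of 0.05. DESeq2 1.42.0 was an alternative. CPM were computed on TMM-scaled library sizes. The calculation was tested on simulated data. Groups follow the labels, and replicate numbers only name a library. Libraries whose log2 CPM of miR-150-5p lay above its widest gap are the lymphocyte-rich ones. Correlations are of log2 CPM (plus 0.5 for the 3p arms) and use 100000 resamples, or all orders within 7 libraries, and are given within each set because the libraries fall into clusters. Libraries were permuted without regard to group. Library totals ran from 1.6 to 23.6 M reads. No 2 libraries agreed within sampling noise, with a chi-square per degree of freedom of at least 90.4 within groups and 41.5 overall. The members, the marker and p53 lists and the tests were chosen with earlier results of these data known. Named are the members, their 3p arms, miR-449, list loci with an unadjusted p below 0.05 or the highest level, and the 3 loci most like each member.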

Additional observations from a re-analysis of the deposited data

Results flagged for a closer look

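Of 36 group-wise sets of 6 libraries examined (levels and ratios of the family), 4 held a library whose gap to its nearest neighbour was above Dixon's 95% critical value for its share of the range. Chance gives such a gap in about 1 of 20 sets. The sets share libraries, and the ratios reuse the levels, so the sets are not independent. All 4 flagged values are from lymphocyte-rich libraries, and some are from the same library. In sedentary wild type replicate 1, miR-34b-3p was at 2.53 CPM, with the others between 6.78 and 8.69 CPM. In the same library the ratio of miR-34a-5p to miR-34b-5p plus miR-34c-5p was 1.20, with the others between 0.466 and 0.714. In sedentary kinase dead replicate 5 the ratio of miR-34c-5p to miR-34b-5p was 6.54, with the others between 12.2 and 15.7. In trained wild type replicate 1, miR-449a-5p was at 5.54 CPM, from 61 reads, with the others between 1.58 and 2.95 CPM.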

How the results depend on the processing

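No alternative gave a member an adjusted p below 0.05: RLE factors, library totals alone, DESeq2, no filter, only the groups compared, without the lymphocyte-rich libraries, or leaving out 1 library. Of 102 values of the members under the first 6 of these, 99 kept their sign. The others were miR-34a-5p for training in kinase dead (0.0786 without the lymphocyte-rich libraries) and miR-34c-5p in the interaction (-0.0282 without them, and -0.0282 with no filter). Without those libraries the miR-449a-5p interaction was 0.31. Leaving out 1 library kept the sign in 405 of 432 values. The lowest and highest estimates of those that crossed 0 were -0.21 and 0.0699 for miR-34a-5p and -0.0834 and 0.24 for miR-34b-5p in kinase dead training. For miR-34c-5p they were -0.20 and 0.0917 in the interaction, -0.0139 and 0.25 for genotype in sedentary mice and -0.0870 and 0.14 in trained mice. For miR-449a-5p they were -0.27 and 0.23 in the interaction and -0.0382 and 0.39 for genotype in trained mice. For miR-34c-3p they were -0.10 and 0.19 for training in wild type and -0.0262 and 0.31 for genotype in sedentary mice. For miR-34b-3p they were -0.14 and 0.22 for training in wild type, -0.18 and 0.0261 averaged over genotypes and -0.19 and 0.0773 for genotype in trained mice.

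Dividing miR-34a-5p by miR-34b-5p alone gave mean ratios of 6.82 in trained kinase dead, 7.83 in sedentary kinase dead, 7.54 in trained wild type and 7.50 in sedentary wild type. The larger values follow from the smaller denominator. The order of the groups also changed, within SDs of 1.43 to 2.80 for this ratio. Against the whole cluster, sedentary wild type was highest (0.676) and trained wild type lowest (0.562). Against miR-34b-5p alone, sedentary kinase dead was highest and trained kinase dead lowest. The ratio without the lymphocyte-rich libraries was an alternative chosen after seeing the data. Leaving those libraries out turned the sign of r, against all 24, for miR-34a-5p with miR-34c-5p (0.153) and the epithelial list (0.288), for miR-34b-5p with the red cell list (0.107), and for miR-34c-5p with the epithelial (-0.142), lymphocyte (0.399) and red cell (0.152) lists. Some relations kept their sign but lost an adjusted permutation p below 0.05. These were miR-34c-5p with miR-34c-3p (0.031) and miR-34a-5p with the lymphocyte (0.214) and muscle (-0.347) lists. Such a p was also lost for miR-34c-5p with lists where the sign turned. Over all 24 it had r = -0.700 with the lymphocyte list (adjusted permutation p 0.00144) and 0.508 with the epithelial list (0.0429). The cause was not tested. No paired analysis was possible because the replicate numbers follow accession order and pair nothing. With 3 reads equal to up to 1.8 CPM, values of the 3p arms and miR-449a-5p in the shallowest libraries rest on few reads.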
